A study of Mus musculus with 18 samples.

Results

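The 8 genes described here, *Mfrp*, *Ano4*, *Il5ra*, *Slc24a3*, *Camta1*, *Unc5b*, *Ptgds* and *Gm45650*, were taken by name from 55401 genes counted in pools of thick ascending limb (TAL) tubules, of which 33307 genes had a count in at least 1 pool. They were selected on their counts and TPM values in the cortical TAL (CTAL), because these differed between *Cldn10* conditional knock-out (cKO) and wild type (WT) pools. The levels in CTAL are therefore given as a description, with no test of the genotype. The rule did not use the medullary TAL (MTAL) pools, and the genotype was tested there. However, the 8 genes were taken with earlier results of these data known. The MTAL test is therefore not shown to be independent of the choice. Of the 8 genes, 5 were lower in cKO than in WT pools in CTAL and 3 were higher, and the fitted difference in MTAL had the same direction for all 8 genes.

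The TAL is the segment of the nephron that reabsorbs NaCl through the cotransporter NKCC2 while letting no water through, and that reabsorbs calcium and magnesium between its cells. Claudin-10, encoded by *Cldn10*, forms cation-selective pores in its tight junctions. The 8 genes belong to no single pathway. *Slc24a3* encodes the potassium-dependent sodium-calcium exchanger NCKX3, *Camta1* a calmodulin-binding transcription activator, and *Ano4* a member of the TMEM16 family of calcium-activated membrane proteins. *Il5ra* encodes the α-chain of the interleukin-5 receptor, *Unc5b* a receptor of netrins, and *Mfrp* a membrane protein with a frizzled-type domain that is best known from the eye. *Ptgds* encodes the lipocalin-type synthase of prostaglandin D2, and *Gm45650* is a long intergenic non-coding RNA with no described role known here.

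All mice carried floxed *Cldn10* alleles. Their strain is labelled C57BL/6J, and the methods describe a background that is mostly, not wholly, C57BL/6. cKO mice also carried a Cre recombinase under control of the promoter of Ksp-cadherin, a gene of the distal nephron, and WT mice were littermates without Cre. Animals were adult males, and each pool held 150 to 200 tubules of a single, distinct mouse, dissected by hand after enzyme digestion of the kidney. There were 5 pools of WT CTAL, 5 of cKO CTAL, 5 of WT MTAL and 3 of cKO MTAL. *Cldn10* was reduced but not absent in cKO pools, from 384–579 CPM in WT CTAL to 156–185 CPM in cKO CTAL and from 653–810 CPM in WT MTAL to 151–296 CPM in cKO MTAL, where CPM is the count of a gene scaled to a common, normalised library size. *Slc12a1*, which encodes NKCC2, was measured between 11424 and 16145 CPM in the 18 pools. Total counts ranged from 10824299 to 62339939 per pool and were between 13275232 and 19608753 in cKO MTAL, and the lowest count of any of the 8 genes in any pool was 7.

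In 1 pool the labels disagree. The pool named WT CTAL replicate 1 has a genotype label that reads knock-out, whereas its pool name reads WT, and it was used as WT. It held 446 CPM of *Cldn10*. Without it, the log2 differences of cKO over WT CTAL were −2.10 for *Mfrp*, −2.12 for *Ano4*, 2.75 for *Il5ra*, 2.39 for *Slc24a3*, 1.02 for *Camta1*, −0.83 for *Unc5b*, −1.11 for *Ptgds* and −1.98 for *Gm45650*. Although all animals are described as male, *Xist*, which is transcribed from the inactive X chromosome, reached 6.49 to 8.76 CPM in 7 pools (WT CTAL 3 and 22, cKO CTAL 2, and WT MTAL 11, 15, 17 and 19) and at most 0.739 CPM in the other pools. None of the cKO MTAL pools was among the 7.

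The sequences before the start sites of 4 of the genes are given first, as they differ in their content of CpG dinucleotides, including between both genes that rise most. Each is the stretch of 250 bases that precedes a RefSeq transcript start on GRCm38.p6, read 5′ to 3′ on the strand of the gene, with CpG in capitals. *Mfrp* (chr9:44101520-44101769, + strand, 5 CpG) and *Ano4* (chr10:89257791-89258040, − strand, 2 CpG) are lower in cKO pools, and the RefSeq start of *Ano4* lies inside its GENCODE gene body. *Il5ra* (chr6:106749038-106749287, − strand, 4 CpG) and *Slc24a3* (chr2:145167525-145167774, + strand, 35 CpG) are higher.
Mfrp: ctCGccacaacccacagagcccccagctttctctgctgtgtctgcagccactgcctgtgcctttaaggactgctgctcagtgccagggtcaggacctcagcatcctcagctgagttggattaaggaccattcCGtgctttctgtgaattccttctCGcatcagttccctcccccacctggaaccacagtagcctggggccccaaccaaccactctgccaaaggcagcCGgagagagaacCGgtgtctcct
Ano4: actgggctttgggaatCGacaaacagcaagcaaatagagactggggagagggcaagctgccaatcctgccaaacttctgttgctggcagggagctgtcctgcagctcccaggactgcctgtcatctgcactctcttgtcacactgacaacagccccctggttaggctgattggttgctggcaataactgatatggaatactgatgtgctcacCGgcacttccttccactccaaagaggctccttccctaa
Il5ra: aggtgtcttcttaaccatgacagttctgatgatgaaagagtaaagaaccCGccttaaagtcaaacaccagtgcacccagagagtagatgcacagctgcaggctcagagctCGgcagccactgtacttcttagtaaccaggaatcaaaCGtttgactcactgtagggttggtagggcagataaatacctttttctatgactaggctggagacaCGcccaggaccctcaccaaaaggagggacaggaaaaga
Slc24a3: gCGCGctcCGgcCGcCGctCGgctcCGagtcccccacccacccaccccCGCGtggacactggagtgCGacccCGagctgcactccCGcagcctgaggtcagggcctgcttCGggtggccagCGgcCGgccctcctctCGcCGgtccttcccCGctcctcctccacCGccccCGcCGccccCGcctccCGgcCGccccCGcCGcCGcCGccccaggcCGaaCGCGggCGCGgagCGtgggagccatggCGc
The *Slc24a3* stretch had a GC content of 80.8%, above that of 99.0% of the 32851 RefSeq promoter stretches of the same length, and more CpG than 97.0% of them. The 3 others had 58.4% GC for *Mfrp*, 53.2% for *Ano4* and 48.0% for *Il5ra*, against a median of 52.4% GC and 6 CpG over all stretches. A second RefSeq start of *Slc24a3* was preceded by 14 CpG. *Camta1* and *Unc5b* also had CpG-rich stretches with 18 and 27 CpG, and *Ptgds* and *Gm45650* had 2 and 1. Thus both directions of change included CpG-rich and CpG-poor starts. Of 6 motifs searched on both strands, only the AP-1 site (TGANTCA) was found before a start of any of the 8 genes, in *Il5ra*, *Ptgds* and *Gm45650*, and it was found in 6.75% of all stretches. The other motifs, with their share of all stretches, were the E-box (CACGTG, 6.02%), the cAMP response element (TGACGTCA, 1.55%), an extended nuclear receptor half-site (TCAAGGTCA, 0.387%), the TATA box (TATAAA, 12.4%) and the HNF1 half-site (GTTAAT, 6.43%). A match, or none, in these letters says nothing of whether a factor binds.

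**Figure D1:**
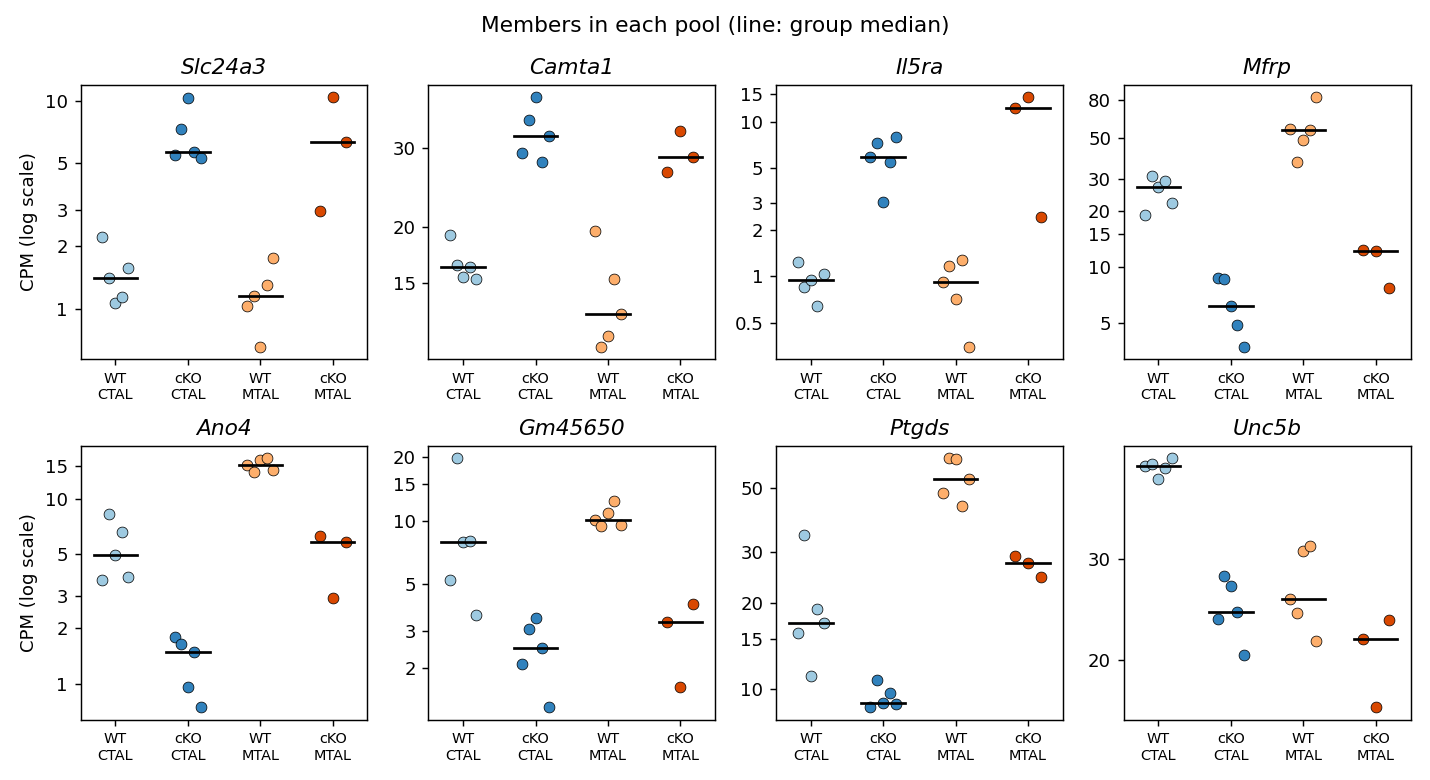
CPM of each of the 8 genes (y axis, log scale) in every pool of the 4 groups (x axis). Each point is 1 pool and each line a group median. *Slc24a3*, *Camta1* and *Il5ra* lie higher in cKO than in WT pools of both segments, and the genotypes overlap only for *Unc5b* in MTAL.

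Among the genes linked to calcium, *Slc24a3* (chr2:145167754-145642166, + strand) was low in all WT pools and higher in all cKO pools. In WT CTAL the pools 1, 3, 8, 10 and 22 held 2.22, 1.41, 1.07, 1.15 and 1.57 CPM. In cKO CTAL the pools 2, 4, 7, 9 and 21 held 5.50, 7.29, 10.3, 5.64 and 5.31 CPM. The lowest cKO pool thus stood above the highest WT pool, a log2 difference of 2.19 with a standard error (SE) of 0.27. In WT MTAL the pools 11, 13, 15, 17 and 19 held 1.04, 1.16, 0.662, 1.303 and 1.75 CPM, and the cKO MTAL pools 16, 18 and 20 held 2.95, 10.4 and 6.34 CPM. The cKO MTAL pools differed among themselves by more than 3 times, with pool 16 nearest to WT, but did not overlap with WT MTAL. The log2 fold change in MTAL was 2.47 (SE 0.47, with an adjusted p of 0.00466 from edgeR's quasi-likelihood test and Benjamini-Hochberg adjustment). The filter asks for 3 CPM in 3 pools, with CPM taken on library totals without normalisation, where cKO MTAL 16 held 3.01 CPM. *Slc24a3* passed it through its cKO pools alone, so that its call is given as a value and not as support. Levels in WT MTAL and WT CTAL overlapped, as did those in cKO MTAL and cKO CTAL (log2 difference −0.01, SE 0.38).

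*Camta1* (chr4:150917322-151861876, − strand) rose in MTAL, and its difference in CTAL was of a similar size. WT CTAL pools held 19.1, 16.5, 15.4, 16.3 and 15.3 CPM and cKO CTAL pools 29.2, 34.6, 38.9, 27.9 and 31.9 CPM, in the order of pools given above for *Slc24a3*, which is kept below. The log2 difference of 0.96 (SE 0.12) lay just under the threshold of 1 used for calls. WT MTAL pools held 19.5, 10.8, 11.4, 15.3 and 12.8 CPM and cKO MTAL pools 26.5, 32.6 and 28.6 CPM. All 3 cKO MTAL pools were above the 5 WT MTAL pools, with a log2 fold change of 1.08 (SE 0.22, edgeR adjusted p = 0.00899). This call was lost on TPM, the authors' values per length of transcript, where the adjusted p was 0.130 with limma on log2(TPM + 1). In TPM, WT CTAL 3 held 27.5 and cKO CTAL pools 16.8 to 24.8, so that the genotypes overlapped in CTAL on that scale. The long gene body of *Camta1* spans the gene of the clock component *Per3* on the same strand, with 0 shared exonic bases. *Per3* went the other way, with 21.7 ± 8.66 CPM in the 5 WT and 7.82 ± 2.65 CPM in the 3 cKO MTAL pools (mean ± SD), and fell by 1.48 on the log2 scale (edgeR adjusted p = 0.0121).

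*Ano4* (chr10:88948994-89344762, − strand) fell in MTAL and was lower in cKO than in WT CTAL. WT CTAL pools held 3.66, 8.28, 4.99, 6.64 and 3.77 CPM and cKO CTAL pools 1.80, 1.65, 0.964, 1.48 and 0.751 CPM, a log2 difference of −2.003 (SE 0.30). WT MTAL pools lay close together at 15.1, 13.9, 16.1, 16.5 and 14.3 CPM, and cKO MTAL pools held 6.26, 2.91 and 5.81 CPM. The genotypes overlapped in neither segment. In MTAL the log2 fold change was −1.60 (SE 0.30, edgeR adjusted p = 0.00476). The order of medians was WT MTAL, cKO MTAL, WT CTAL and cKO CTAL, and the middle pair, cKO MTAL and WT CTAL, overlapped. The gene was higher in MTAL than in CTAL by a log2 difference of 1.49 (SE 0.23) in WT and 1.92 (SE 0.39) in cKO pools.

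Among the receptors, *Il5ra* (chr6:106710357-106749037, − strand) showed the largest fitted rise of the 8 genes in both segments. The WT CTAL pools had 1.24, 0.847, 0.952, 0.641 and 1.03 CPM and cKO CTAL pools 5.88, 7.29, 3.04, 5.51 and 7.97 CPM, a log2 difference of 2.63 (SE 0.29). WT MTAL pools held 0.924, 1.16, 0.712, 1.28 and 0.351 CPM, which rest on 16, 55, 14, 64 and 7 counts, and cKO MTAL pools held 12.3, 14.4 and 2.43 CPM on 167, 291 and 41 counts. No cKO pool overlapped with WT in either segment, but cKO MTAL 20 stood well below the other cKO MTAL pools. Because only 2 MTAL pools reached 3 CPM on library totals, *Il5ra* did not pass the filter in MTAL. In the fit of MTAL without a filter its log2 fold change was 3.36 (SE 0.50, edgeR adjusted p = 5.51e-06). Without cKO MTAL 18 the log2 fold change was 2.93, the lowest with any pool left out. Interleukin-5 receptors are best known from eosinophils. The summed level of 4 eosinophil markers was at most 0.811 CPM in any pool.

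*Mfrp* (chr9:44101729-44109187, + strand) had the largest fitted fall of the 8 genes in MTAL. WT CTAL pools held 19.1, 31.2, 27.0, 29.0 and 22.1 CPM and cKO CTAL pools 8.75, 8.63, 6.14, 4.87 and 3.71 CPM, a log2 difference of −2.004 (SE 0.23). The WT MTAL pools had 56.0, 37.1, 48.7, 55.1 and 82.7 CPM and cKO MTAL pools 12.4, 12.2 and 7.71 CPM. The lowest WT MTAL pool was about 3 times as high as the highest cKO MTAL pool. The log2 fold change in MTAL was −2.37 (SE 0.26, edgeR adjusted p = 4.76e-05), a 5.17-fold fall. WT MTAL stood above WT CTAL without overlap (log2 difference 1.12, SE 0.19), whereas cKO MTAL and cKO CTAL overlapped (0.77, SE 0.31). *Mfrp* shares 1589 exonic bases, 36.7% of its own, with *C1qtnf5* on the same strand, so that the split of reads between both genes is uncertain. *C1qtnf5* had 4.26 ± 3.47 CPM in the 5 WT and 7.19 ± 6.39 CPM in the 3 cKO MTAL pools (mean ± SD, log2 fold change 0.77, edgeR adjusted p = 0.498). The part of shared reads in the fall of *Mfrp* was not tested. *Rnf26*, which overlaps *Mfrp* by 54 exonic bases on the opposite strand, had 36.3 ± 5.72 CPM in the same WT and 38.9 ± 2.66 CPM in the same cKO MTAL pools.

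For *Unc5b* (chr10:60762593-60831581, − strand) the difference in CTAL had a smaller counterpart in MTAL, which did not pass the test. Levels in WT CTAL were 43.7, 44.0, 41.5, 43.4 and 45.1 CPM, and cKO CTAL pools 23.6, 27.98, 26.9, 24.2 and 20.4 CPM. The WT CTAL pools were thus nearly equal, and the groups stood far apart for a log2 difference of −0.83 (SE 0.10). WT MTAL pools held 25.6, 24.1, 30.9, 31.7 and 21.5 CPM and cKO MTAL pools 21.7, 16.5 and 23.4 CPM. These groups overlapped (exact Mann-Whitney test, two-sided, p = 0.143), and the log2 fold change of −0.38 (SE 0.20) did not pass the test (edgeR adjusted p = 0.277). WT MTAL already stood below WT CTAL without overlap (log2 difference −0.70, SE 0.12), while WT MTAL and cKO CTAL overlapped, as did cKO CTAL and cKO MTAL. The difference between the genotype effects, MTAL minus CTAL, was 0.44 on the log2 scale (SE 0.19). It was not tested, since the CTAL effect chose the gene.

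*Ptgds* (chr2:25466709-25470046, − strand) followed both segment and genotype. In CTAL the WT pools held 15.7, 34.3, 11.1, 18.99 and 16.99 CPM and cKO CTAL pools 8.65, 10.8, 8.98, 9.68 and 8.87 CPM, so that the lowest WT pool lay just above the highest cKO pool. The log2 difference of −1.04 (SE 0.24) shrank to −0.75 without WT CTAL 3. WT MTAL pools held 48.3, 63.7, 63.2, 43.4 and 53.8 CPM and cKO MTAL pools 29.2, 27.6 and 24.6 CPM, with no overlap. In MTAL the log2 fold change was −1.001 (SE 0.17, edgeR adjusted p = 0.00235) and fell on the threshold of 1 itself, so that several other settings moved it below. With limma on log2(TPM + 1) its adjusted p was 0.0803. The excess of MTAL over CTAL was alike in WT (log2 difference 1.51, SE 0.23) and cKO pools (1.56, SE 0.16). Per length of transcript, *Ptgds* in WT MTAL was the highest of the 8 genes at 96.8 ± 21.6 TPM (SD, n = 5), against 0.369 ± 0.105 TPM (SD, n = 5) for *Slc24a3*, the lowest there.

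The non-coding RNA *Gm45650* (chr8:60719291-60725806, + strand) fell in MTAL. WT CTAL pools held 5.25, 19.9, 7.91, 7.99 and 3.57 CPM and cKO CTAL pools 2.10, 3.08, 3.45, 2.48 and 1.30 CPM. WT CTAL 3 stood apart from the other WT CTAL pools, and WT CTAL 22 was barely above cKO CTAL 7. The log2 difference of −1.83 (SE 0.41) was −1.33 without WT CTAL 3. WT MTAL pools held 10.05, 9.48, 10.9, 12.4 and 9.56 CPM and cKO MTAL pools 3.32, 1.63 and 4.03 CPM, with no overlap. The log2 fold change in MTAL was −1.81 (SE 0.37, edgeR adjusted p = 0.00778). With a term for the pools that held *Xist*, it was −1.58 with an adjusted p of 0.0551 from the same test, past the threshold no longer. Levels in both segments overlapped within each genotype.

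**Figure D2:**
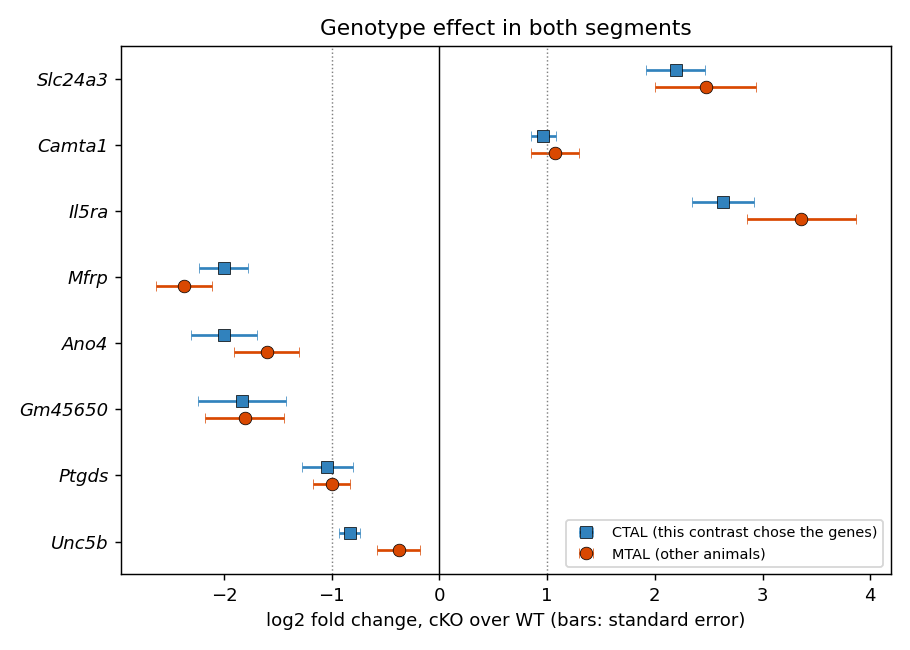
Log2 fold change of cKO over WT (x axis) for each of the 8 genes (y axis) in CTAL (squares) and MTAL (circles), with bars of 1 standard error and dotted lines at −1 and 1. The 2 estimates lie on the same side of 0 for every gene, and that of *Unc5b* in MTAL, −0.38, is the nearest to 0.

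Counted together, 7 of the 8 genes passed the filter in MTAL and 6 of the 8 were called there with an adjusted p below 0.05 together with a change of 1 or more on the log2 scale, against 3.74% of the 12060 genes tested (2.69% higher and 1.04% lower). The 6 include *Slc24a3*, which entered the test only through the group where it is high, and their count is therefore not read against that share. *Unc5b* was not called, and *Il5ra* was not among the genes tested. In the fit without a filter 7 of the 8 were called, against 2.87% of genes. The genotypes did not overlap in MTAL for 7 of the 8 genes, all but *Unc5b* (exact two-sided Mann-Whitney test, p = 0.0357 for each, the smallest that 3 pools against 5 can give, not adjusted), against 14.4% of the genes tested. This count holds *Slc24a3* and also *Il5ra*, which is not among the genes tested, and is therefore not read against that share. In CTAL, where the same contrast chose the genes, 6 of the 8 met the same call rule, against 0.47% of 11702 genes, and the genotypes overlapped for 0 of the 8, where 3.1% of genes did not overlap, and nothing is read from these counts. *Ptgds*, at −1.04, lay just inside the fold threshold and *Camta1*, at 0.96, just outside it. The differences between the genotype effects of both segments, MTAL minus CTAL, ranged from −0.38 for *Mfrp* (SE 0.35) to 0.77 for *Il5ra* (SE 0.62) and were not tested. In whole tubules a fall in the number of cells of a type and a fall in RNA per cell cannot be told apart.

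Markers of other cells moved with the genotype. The summed level of 7 endothelial markers was 230 to 507 CPM in WT CTAL, highest in WT CTAL 3, and 194 to 284 CPM in cKO CTAL. It was 270 to 423 CPM in WT MTAL and 155 to 257 CPM in cKO MTAL, without overlap, and the median was 2.09 times as high in WT MTAL. All 7 were lower in cKO MTAL, and 3 of the 7, *Emcn*, *Cdh5* and *Flt1*, named after their values were seen, were called with log2 fold changes of −1.10, −1.34 and −1.10. The fall of *Mfrp* was 5.17-fold, that of *Gm45650* 3.50-fold, that of *Ano4* 3.04-fold and that of *Ptgds* 2.001-fold. Of the thin limb markers, *Slc14a2* was called lower and *Cldn4* higher in cKO MTAL (log2 fold changes −1.90 and 1.80), and their list summed to 175 to 274 CPM in WT and 162 to 204 CPM in cKO MTAL and was highest among CTAL pools in WT CTAL 3 (229 CPM). The proximal tubule marker *Slc34a1* (2.39) was called higher in cKO MTAL, as was *Acta2* (1.22) of the fibroblast and pericyte list. Their lists summed to 16.9 to 68.5 CPM and 73.6 to 79.9 CPM there, against 13.1 to 26.3 CPM and 53.2 to 63.2 CPM in WT MTAL. In the list of *Acta2*, 3 of the 5 tested genes were higher and 2 were lower. The pericyte markers *Pdgfrb* (−0.59) and *Rgs5* (−0.39) were the 2 lower ones and did not pass the test. *Slc14a2*, *Cldn4*, *Slc34a1* and *Acta2* were also named after their values were seen. How much of each difference goes with these markers was not tested.

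**Figure D3:**
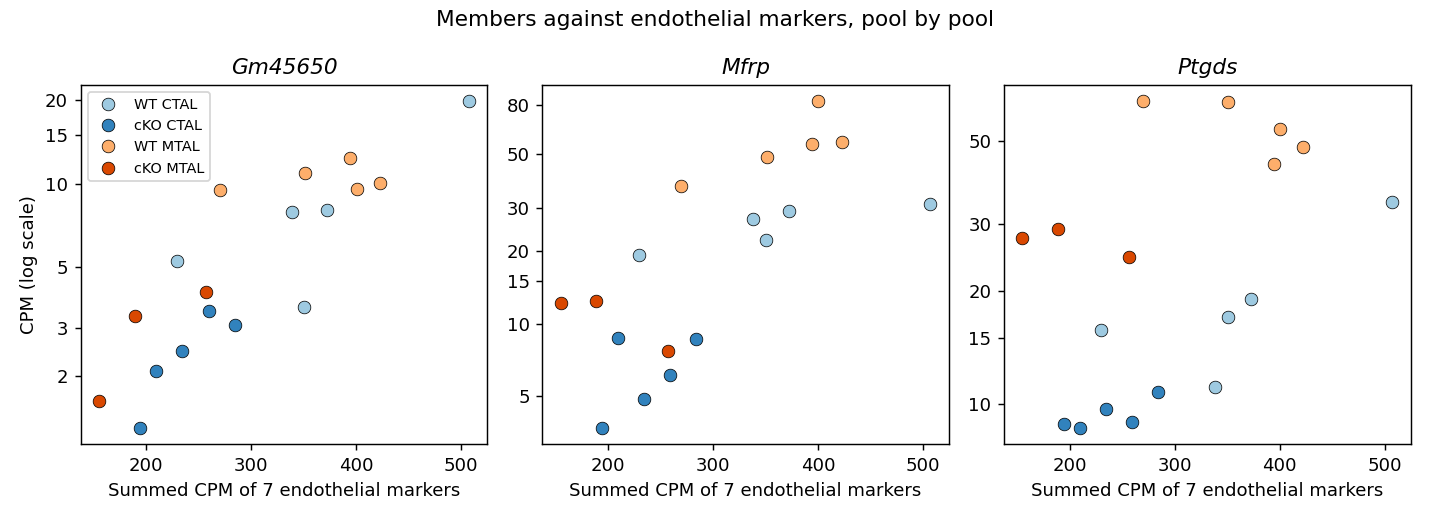
CPM of *Gm45650*, *Mfrp* and *Ptgds* (y axes, log scale) against the summed CPM of 7 endothelial markers (x axes), with 1 point per pool, coloured by group. WT CTAL 3, at 507 CPM of endothelial markers, holds the most *Gm45650* (19.9 CPM) of all pools. Among the CTAL pools it also holds the most *Mfrp* (31.2 CPM) and *Ptgds* (34.3 CPM), while all WT MTAL pools hold more of both.

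Markers of tubular injury were also higher in cKO pools. The summed level of 6 of them, most of it *Spp1*, was 1059 to 1295 CPM in WT MTAL and 2148 to 9015 CPM in cKO MTAL, highest in cKO MTAL 18. In CTAL it was 1406 to 1679 CPM in WT and 1785 to 4840 CPM in cKO pools. Of these markers, *Clu*, *Spp1* and *Lcn2* were called in MTAL (log2 fold changes 3.81, 1.85 and 3.44) and *Clu* in CTAL (2.05). *Vcam1* had log2 fold changes of −0.55 in MTAL and −0.36 in CTAL that did not pass the test (adjusted p = 0.502 and 0.634), and *Havcr1* and *Krt20*, which were not tested, were at most 6.37 and 1.13 CPM in any pool. *Slc24a3*, *Camta1* and *Il5ra* were each highest among the cKO MTAL pools in pool 18, at 10.4, 32.6 and 14.4 CPM. In CTAL the pool with most injury markers, cKO CTAL 2, held the highest level of none of the 3 genes, with 5.50, 29.2 and 5.88 CPM. Collecting duct markers stood out in cKO MTAL 20, with 801 CPM of principal cell markers against a median of 94.7 in its group. That pool held the least *Il5ra*, *Mfrp* and *Ptgds* of the cKO MTAL pools and the most *Gm45650* and *Unc5b*. The part of these markers in the results was not tested.

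Across the 18 pools, the genes whose log2 level was most like that of each of the 8 genes were found among 12586 genes, as a description in which group differences and all else the pools share take part. *Mfrp* was nearest to *Socs5* (Pearson's r = 0.94) and to *Cldn10* itself (r = 0.93). *Ano4* was nearest to *Fbln7* (r = 0.96) and *Ankrd33b* (r = 0.94), and *Ptgds* to *Pcsk6* (r = 0.97) and *Epcam* (r = 0.95). *Il5ra* was nearest to *Pmaip1* (r = 0.90) and *Samd5* (r = 0.89), and *Unc5b* to *Antxr2* (r = 0.89) and *Mt3* (r = 0.88). *Slc24a3* and *Camta1* were nearest to each other (r = 0.92), followed by *Gm16010* for *Slc24a3* and *Ctsc* for *Camta1* (r = 0.92 for both). *Gm45650* was nearest to *Adgrl4* (r = 0.93) and *Pecam1* (r = 0.91), both known from endothelium. Within the 8 genes, *Ano4* went with *Ptgds* (r = 0.93) and with *Mfrp* (r = 0.91), and *Mfrp* went against *Camta1* (r = −0.87). For *Unc5b* r ranged from −0.65 with *Il5ra* to 0.52 with *Gm45650* and was nearest to 0 with *Ptgds* (r = −0.08).

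The families and pathways of the 8 genes were then counted over 93 other genes in 7 lists. In MTAL 53 of them were tested and 8 were called (15.1%), 7 higher and 1 lower, where 3.74% of all genes tested were called, 2.69% higher and 1.04% lower. Of the 8, 4 passed the filter through 1 genotype alone, the one in which they are high: *Frzb*, *Ano9* and *Ptges* through cKO MTAL and *Corin* through WT MTAL. Their calls had to meet that condition first and are given as values. The lists were also chosen with earlier results of these data known. For both reasons the 15.1% is not read against the 3.74%. In CTAL 46 were tested and 0 were called with edgeR's quasi-likelihood test, where 0.47% of all 11702 genes tested were called, and DESeq2 called 0 as well. In that edgeR test 14 of the 46 had an unadjusted p under 0.05. The share of all genes at that cut is not given here, so nothing is read from this count. The lists with calls in MTAL are described below with the values of each gene, and all adjusted p are from edgeR's quasi-likelihood test.

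Among 23 genes for frizzled-domain proteins and the partner gene of *Mfrp*, 15 were tested in MTAL, of which 3 rose and 1 fell. *Sfrp1*, a secreted Wnt antagonist, had 46.9 ± 11.5 CPM (mean ± SD) in the 5 WT and 197 ± 71.1 CPM in the 3 cKO MTAL pools (log2 fold change 2.08, adjusted p = 3.06e-05). *Frzb*, another secreted Wnt antagonist, was at 1.40 ± 0.495 and 8.27 ± 2.93 CPM (log2 fold change 2.54, adjusted p = 0.00208), and the receptor *Ror2* at 8.78 ± 0.942 and 22.1 ± 8.20 CPM (1.33, adjusted p = 0.00616). *Corin*, a membrane protease that activates natriuretic peptides and carries frizzled domains as *Mfrp* does, fell with it from 4.24 ± 1.60 to 0.589 ± 0.319 CPM (−2.86, adjusted p = 0.00502). *Col18a1* had an adjusted p of 0.00778 but a log2 fold change of 0.88, under the fold threshold. The median over the 15 was 0.24, against 0.00 over all genes tested.

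Of 12 genes for sodium-calcium exchangers and calcium pumps, 5 were tested in MTAL. The plasma membrane calcium pump *Atp2b4* rose with *Slc24a3*, from 9.63 ± 2.54 CPM in the 5 WT to 23.5 ± 15.2 CPM in the 3 cKO pools (mean ± SD), with a log2 fold change of 1.29 (adjusted p = 0.0288). In CTAL it was at 28.2 ± 8.04 and 67.3 ± 40.2 CPM (SD, n = 5 each), a log2 difference of 1.23 that did not pass the test (adjusted p = 0.106). *Slc8b1*, the mitochondrial sodium-calcium exchanger, had a log2 fold change of −0.63 in MTAL (adjusted p = 0.0482), under the fold threshold. The paralogs *Slc24a1*, *Slc24a2* and *Slc24a4* had group means of at most 0.457 CPM. The paralog *Slc24a5* had 8.30 ± 3.88 CPM in WT and 3.50 ± 2.50 CPM in cKO MTAL and was not called (−1.24, adjusted p = 0.154). Among the 9 other anoctamins 5 were tested, and *Ano9* rose from 2.13 ± 0.532 to 6.33 ± 1.55 CPM (log2 fold change 1.56, adjusted p = 0.0232), the direction opposite to *Ano4*. *Ano1* had the direction of *Ano4*, with 3.29 ± 2.55 and 0.603 ± 0.223 CPM, and was not called (−2.41, adjusted p = 0.0740). *Ano6*, an anoctamin that scrambles membrane phospholipids, had group means between 155 and 173 CPM and a log2 fold change of 0.08 in MTAL (adjusted p = 0.733).

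The partners of the receptors were mostly not called or hardly measured. None of the 7 tested genes of the interleukin-5 receptor pathway was called in MTAL with edgeR or DESeq2, and 2 had an unadjusted p under 0.05. *Il5*, the ligand, had group means of at most 0.0329 CPM, and *Csf2rb*, the β-chain that the receptor needs to signal, had group means of 1.12 to 2.16 CPM. Of 14 genes for netrins and their receptors 6 were tested in MTAL and 0 were called by either tool, with 1 at an unadjusted p under 0.05. The netrin *Ntn4* had group means of 195 to 300.4 CPM and a log2 fold change of 0.21 in MTAL (adjusted p = 0.321). Of 6 genes for CAMTA factors and calmodulins 4 were tested and 0 were called by either tool, with 1 at an unadjusted p under 0.05. Of all genes tested in MTAL 3.74% were called with edgeR. The share of all genes at an unadjusted p under 0.05 is not given here, so nothing is read from these counts.

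Among 19 genes of prostaglandin synthesis, transport and reception, 11 were tested in MTAL and 2 rose, while *Ptgds* fell. *Slco2a1*, which transports prostaglandins into cells, went from 9.71 ± 3.22 CPM in the 5 WT to 36.5 ± 7.38 CPM in the 3 cKO pools (mean ± SD), with a log2 fold change of 1.91 (adjusted p = 0.000389). *Ptges*, an inducible synthase of prostaglandin E2, went from 1.32 ± 0.883 to 8.74 ± 7.94 CPM (2.74, adjusted p = 0.0109), with 17.8 CPM in the highest cKO MTAL pool and 2.95 CPM in the lowest. *Ptger3*, a prostaglandin E2 receptor of the TAL, was at 906 ± 144 and 642 ± 59.1 CPM (−0.49, adjusted p = 0.0403), under the fold threshold. *Ptgdr* and *Ptgdr2*, the receptors of the product of *Ptgds*, had group means of at most 0.0246 CPM.

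**Figure D4:**
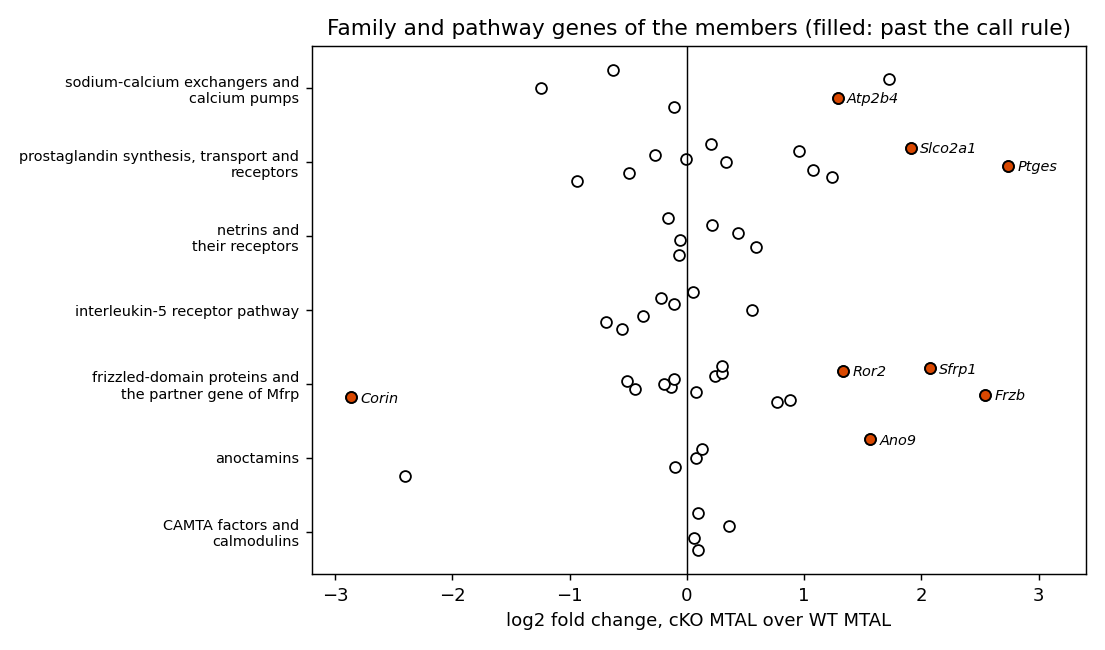
Log2 fold change of cKO over WT MTAL (x axis) of the 53 tested genes of the 7 family and pathway lists (y axis), with the 8 called genes filled and named. *Frzb*, *Sfrp1* and *Ptges* lie beyond 2, and *Corin* is the only called gene that is lower in cKO MTAL.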

How the data were processed

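Strand-specific poly-A libraries of 18 pools were read from both ends. Reads were trimmed by the authors with fastp, then mapped and quantified with DRAGEN on mm10 with a GENCODE annotation, while the labels' processing notes list FastQC, Trimmomatic, DRAGEN and Picard. Whether counting used the strand is not given in the sources used here. The estimated counts deposited by the authors, per gene and not normalized, hold decimals and were rounded to whole numbers. The TPM values deposited by the authors correct for transcript length and depth. Pools excluded in the study (2 cKO MTAL, 1 cKO CTAL) were not analysed here.

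CPM were computed on TMM-normalized totals over all 18 pools. Genes with 3 CPM, here on totals without TMM factors, in 3 pools (MTAL) or 5 pools (CTAL) were fitted with edgeR (version 4.0.16, R 4.3.3), by the quasi-likelihood F test on the pools of each comparison only. A call needs a Benjamini-Hochberg adjusted p under 0.05 plus a difference of 1 or more on the log2 scale. Exact two-sided Mann-Whitney tests used scipy (version 1.17.1). Alternatives were edgeR's likelihood ratio test, DESeq2 (version 1.42.0), totals without TMM factors, no filter, 1 fit of all 18 pools, a term for *Xist*, limma (version 3.58.1) on log2(TPM + 1) and log2(TPM + 0.1), and each pool left out.

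The 8 genes, the family and marker lists and the motifs were chosen with earlier results of these data known. Named genes are the 8, genes that overlap them, the 2 genes most like each by Pearson's r of log2 CPM, and family genes with an adjusted p under 0.05 or of high or near-absent level, some of them named after their values were seen. Coordinates are those of GENCODE vM21 (GRCm38), which holds 55141 of the 55401 identifiers (99.5%). Promoter stretches are from RefSeq (GRCm38.p6) and matched 8 of 8 genes by symbol. On simulated counts with a log2 fold change of 2 in either direction, the test recovered 200 of 200 changed genes among 12083 at 3 pools against 5 and 199 of 199 among 11746 at 5 against 5, with 0 false calls. The simulation used a single fixed spread between pools and changed no genes of low level. It therefore says little of low genes, of uneven pools or of effects near the fold threshold. Every pair of replicate pools differed beyond what sampling of counts gives.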

Additional observations from a re-analysis of the deposited data

Results flagged for a closer look

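*Gm45650* in WT CTAL replicate 3, at 19.9 CPM, stood apart from the 4 other WT CTAL pools, the nearest of which held 7.99 CPM and the lowest 3.57 CPM. Its gap was 0.728 of the whole range of the group, above the critical value of 0.71 for 5 pools. In all, 24 groups were screened in this way, and chance flags about 1 in 20. Since *Gm45650* was chosen on its CTAL values, this flag is a description and carries no test. The same pool held the most endothelial markers, 507 CPM, and 6.49 CPM of *Xist*, and the part of either was not tested. Without it the log2 difference of *Gm45650* between cKO and WT CTAL was −1.33, against −1.83 with it.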

How the results depend on the processing

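No fitted direction of the 8 genes changed under the alternatives run. In MTAL these left out *Il5ra* with edgeR's likelihood ratio test, DESeq2 and totals without TMM factors and *Slc24a3* on TPM. In CTAL they cover only totals, left-out pools, the relabelled pool and a fit without the 3 pools with *Xist*. In MTAL, *Ano4* lost its call with limma on log2(TPM + 0.1) (−1.89, adjusted p = 0.0578), and *Camta1* on log2(TPM + 1) (1.07, adjusted p = 0.130) and log2(TPM + 0.1) (1.13, adjusted p = 0.149). *Gm45650* lost it with a term for *Xist* of at least 1 CPM (−1.58, adjusted p = 0.0551), an alternative chosen after seeing the data, and on log2(TPM + 0.1) (−1.60, adjusted p = 0.0520). *Ptgds* lost it on the fold threshold with DESeq2 (−0.999, adjusted p = 6.45e-06), totals without TMM factors (−0.94) and the *Xist* term (−0.87). With limma it missed the adjusted p as well, on log2(TPM + 1) (−0.93, adjusted p = 0.0803) and log2(TPM + 0.1) (−0.95, adjusted p = 0.0988). Of the 8 genes, 2 were called on log2(TPM + 0.1). The genes called in MTAL, 451 in the report, were 692 with edgeR's likelihood ratio test, 869 without a filter, 882 in 1 fit of all 18 pools, 156 on log2(TPM + 1) and 121 on log2(TPM + 0.1). The causes were not tested, except that more genes enter without a filter. Anoctamins called were 2 and calcium exchangers and pumps 2, each 1 in the report, without a filter and with DESeq2. In CTAL, 25 genes in place of 55 were called without the 3 pools with *Xist*, and *Unc5b* was at −0.66 with WT CTAL 1 counted as cKO. Without those 3 pools, a setting also chosen after seeing the data, *Ptgds* was at −0.67, *Gm45650* at −1.46 and *Unc5b* at −0.79. *Mfrp* was then at −2.12, *Ano4* at −2.05, *Il5ra* at 2.65, *Slc24a3* at 2.29 and *Camta1* at 0.97.

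When single pools were left out, the genes called ranged from 279 (without cKO MTAL 20) to 644 in MTAL, with 288 without WT MTAL 15 and 300 without WT MTAL 17, and from 37 to 69 in CTAL. Of the 8 genes, 4 to 6 were called in MTAL. *Camta1* ranged from 0.99 to 1.22 and lost its call without cKO MTAL 18 or WT MTAL 13, and *Ptgds* ranged from −1.07 to −0.93 and lost it without cKO MTAL 20, WT MTAL 13 or WT MTAL 15.

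No paired analysis was possible because the groups share fewer than 2 replicate numbers. The planned term for pools with *Xist* of at least 10 CPM was not run, as 0 pools reached that level. With 3 cKO MTAL pools, single-gene rank tests cannot go below 0.0357, and nothing distinguishes separate litters or dissection days in the labels.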
